A study of Mus musculus with 9 samples.

Results

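The 40 genes described here encode Polycomb and Trithorax chromatin regulators, and the data are the ATAC-seq sites near them whose accessibility changed when ERK signalling was switched on in mouse embryonic stem cells. A site belonged to a regulator gene when that gene had the nearest protein-coding gene body (RefSeq, GRCm38) within 100 kb of the centre of the site. This rule gave 63 of the 19165 sites in the authors' deposited table, spread over 24 of the 40 genes. The cells were of the E14tg2a line on a 129SV background and stably carried cRAF-ErT2, in which the RAF kinase is joined to a hormone-binding domain that 4-hydroxytamoxifen (4OHT) activates. There were 9 libraries, in groups of 3: untreated cells (0 h), and cells given 250 nM 4OHT for 1 h or for 2 h. All of them had been grown in serum with LIF and 2 µM Chir99021, a GSK3 inhibitor, and all spent the 24 h before treatment in serum, LIF and 250 nM PD173074, an FGF receptor inhibitor. No library came from cells without the fusion or from cells given vehicle, so an action of 4OHT itself cannot be told apart from that of ERK.

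Polycomb repressive complex 2 (PRC2) methylates lysine 27 of histone H3, and Polycomb repressive complex 1 (PRC1) binds that mark or CpG-rich DNA and ubiquitinates histone H2A. Together they hold lineage genes silent in embryonic stem cells. The Trithorax side includes the MLL enzymes, which methylate lysine 4 of histone H3, and works with acetyltransferases and with ATP-dependent remodellers that move nucleosomes. Demethylases and deacetylases take these marks away. ATAC-seq reads open DNA by the insertions of the Tn5 transposase, so the values below are the openness of DNA near these genes and not the amount of their RNA or protein.

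Each site carries a mean level over the control libraries and a mean level over the 4OHT libraries, both in log2 normalized reads. Weighting the linear levels 3 to 6 gave the deposited mean over all libraries, with a residual of at most 0.00986 (log2), so the 4OHT side was taken to hold the 1 h and 2 h libraries together. A change is the 4OHT level minus the control level on the log2 scale, and the FDR of each site is that of the authors' deposited table, which lists sites up to an FDR of 0.01. The table used here has no value per library, so no SD can be given. Depth per library is unknown. The mean level at the 63 sites had a median of 6.67 in log2 normalized reads, with quartiles of 5.94 and 7.72, against a median of 7.02 over all 16454 listed sites within 100 kb of a protein-coding gene. In bulk libraries, a site open in more cells and a site more open in each cell give the same change. A list of changed sites holds no expression values, so the stem cell label could not be checked against marker genes.

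None of the 63 sites overlapped a RefSeq promoter window (250 bases before to 50 after an annotated start) of any gene. Over all 16454 sites 2.86% did, so listed sites were rare at promoters in general, and a count of 0 among 63 is near that share. Measured to the nearest annotated start of their own gene, the 54 sites whose gene has a promoter entry lay at a median of 29.1 kb, and the nearest lay 2007 bp away, inside Phc2. The 250 bases upstream of an annotated start are shown for the 4 genes with at least 5 sites that all moved in a single direction, since these loci (Mtf2, Arid1a, Baz2b and Aebp2, with 5, 5, 6 and 5 of the 63 sites) are described site by site. They are from RefSeq (GRCm38.p6), written 5′ to 3′ on the strand of the gene, with capitals where a searched motif matched. The Baz2b window belongs to an annotated start inside the gene body (chr2:59899363-60209913) and not to the 5′ end of the gene. The Aebp2 start also lies inside its gene body (chr6:140622454-140678472), which covers most of the window shown. The Mtf2 start lies just inside its body (chr5:108065660-108109219). Aebp2 has 3 annotated promoter windows, Mtf2 and Arid1a have 2 each, and a single window is shown per gene.

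Mtf2 (chr5:108065424-108065673, plus strand): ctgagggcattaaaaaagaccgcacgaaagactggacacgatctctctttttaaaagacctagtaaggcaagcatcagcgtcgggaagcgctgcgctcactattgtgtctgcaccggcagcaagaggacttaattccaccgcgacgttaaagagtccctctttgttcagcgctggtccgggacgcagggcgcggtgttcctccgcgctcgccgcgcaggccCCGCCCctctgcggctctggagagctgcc
Arid1a (chr4:133756770-133757019, minus strand): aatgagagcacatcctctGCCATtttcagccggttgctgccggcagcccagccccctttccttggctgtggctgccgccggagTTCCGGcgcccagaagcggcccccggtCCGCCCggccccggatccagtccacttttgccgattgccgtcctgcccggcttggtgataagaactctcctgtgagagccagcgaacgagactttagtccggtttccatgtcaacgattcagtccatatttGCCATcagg
Baz2b (chr2:60125741-60125990, minus strand): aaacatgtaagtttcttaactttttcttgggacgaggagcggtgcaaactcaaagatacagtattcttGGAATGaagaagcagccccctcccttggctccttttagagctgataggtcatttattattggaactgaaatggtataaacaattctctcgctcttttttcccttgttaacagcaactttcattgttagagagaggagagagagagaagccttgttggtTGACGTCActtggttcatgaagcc
Aebp2 (chr6:140622413-140622662, plus strand): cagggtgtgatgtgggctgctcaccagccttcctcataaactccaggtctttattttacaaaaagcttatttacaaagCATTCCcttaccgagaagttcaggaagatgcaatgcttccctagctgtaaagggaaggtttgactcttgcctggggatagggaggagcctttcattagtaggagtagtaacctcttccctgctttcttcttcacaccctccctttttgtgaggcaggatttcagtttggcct

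The motifs searched, on both strands, were ETS CCGGAA, AP-1 TGANTCA, CRE TGACGT, EGR GCGTGGG, KLF/SP GGGCGG, TEAD GGAATG, OCT ATGCAAAT, YY1 GCCAT and E-box CACGTG. The KLF/SP letters stood in the Mtf2 and Arid1a sequences, and in 32.7% of all 32851 promoters of this length. Arid1a also held the ETS letters (12.0% of all promoters) and YY1 letters in 2 places (32.9%). The TEAD letters stood in Baz2b and Aebp2 (12.6%), and the CRE letters in Baz2b, as 2 matches that overlap on opposite strands (6.47%). AP-1, EGR, OCT and E-box letters were absent from these 4 windows, and they stand in 6.75%, 4.30%, 1.60% and 6.02% of all promoters. The GC content was 59.2% for Mtf2, 61.2% for Arid1a, 41.2% for Baz2b and 46.4% for Aebp2, against a median of 52.4% over all promoters. The listed site nearest to the start used here was 5.07 kb away for Mtf2, 21.3 kb for Arid1a, 13.8 kb for Baz2b and 2.82 kb for Aebp2. For Baz2b this start is internal, and the listed site nearest to the 5′ end of its gene body lay 12742 bp from that end. These matches describe the letters and were not tied to the changes.

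Most of the changed sites listed near the chromatin regulators opened. Of the 63 sites, 45 were higher after 4OHT and 18 lower, so that 71.4% rose (exact Clopper-Pearson 95% interval 58.7 to 82.1%, counting error only, with sites of the same gene taken as independent), against 54.6% of all 16454 sites. At least 1 site was listed for 24 of the 40 genes (60.0%), against 36.1% of the 21900 protein-coding genes. Only higher sites were listed at 17 of the 24 (70.8%), against 44.5% of all genes with a site. Only lower sites were listed at 4 genes, Aebp2, Ezh1, Arid1b and Hdac2, and both directions at 3, Cbx6, Phc1 and Chd7. Regulators with a site had a median gene length of 55.7 kb, those without one 29.1 kb, and all genes with a site 40.1 kb. The median over all 21900 protein-coding genes was 17.1 kb, so the regulators were longer than the genes they are set against. The part of length in these shares was not tested.

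The direction divided by position. Inside the body of the regulator gene 31 of 34 sites were higher (91.2%, exact interval 76.3 to 98.1%), where 58.4% of all sites inside a gene body were. Outside it 14 of 29 were higher (48.3%, interval 29.4 to 67.5%), next to 49.6% of all sites outside the nearest gene body. Both intervals cover counting error only and take sites of the same gene as independent. The 34 sites inside came from 16 genes, with 6 in Baz2b, 5 in Arid1a and 4 in Mtf2, all of these higher. The only 3 lower sites inside a body were 2 in Aebp2 and 1 in Arid1b. The 2 Cbx7 sites counted as inside lay upstream of the only start of that gene with a promoter entry. No centre of the 63 lay in a second protein-coding gene body. Levels differed too: the median control level was 5.55 at the higher and 7.77 at the lower sites, close to the 5.51 and 7.88 over all sites. In 3 bands of the mean log2 level (under 6, 6 to 8, and 8 and above), the higher shares were 14 of 17, 23 of 33 and 8 of 13 sites, or 82.4%, 69.7% and 61.5%. Over all sites these bands had 68.8%, 52.0% and 47.0%.

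**Figure D1:**
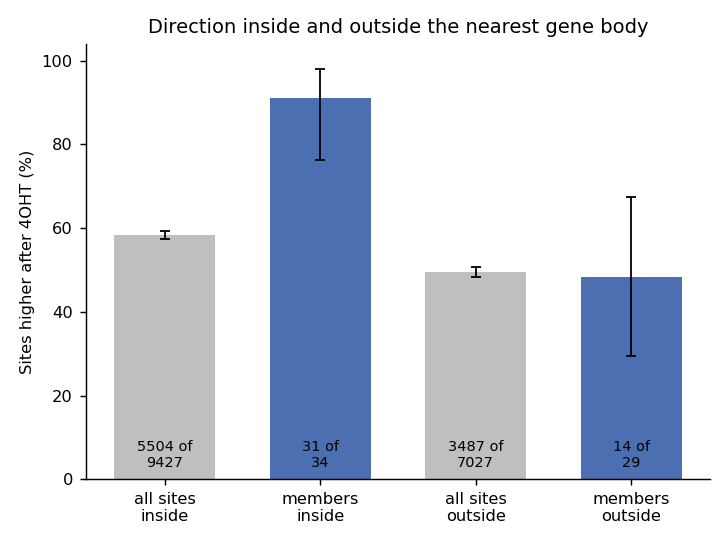
Share of listed sites higher after 4OHT (vertical axis, %) inside and outside the nearest protein-coding gene body, for all 16454 sites (grey) and the 63 sites of the regulators (blue), with exact 95% intervals and counts in the bars. The intervals cover counting error only and take sites of the same gene as independent. The regulators' sites inside gene bodies were higher in 31 of 34 cases, and those outside in 14 of 29.

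The sizes of change were moderate. Higher sites had a median change of 1.17 and lower sites of -0.88, against 1.43 and -0.93 over all sites. A change of at least 1 was listed at 30 of the 45 higher sites (66.7%, where all higher sites had 76.3%) and at 7 of the 18 lower sites (38.9%, where all lower sites had 41.0%). Changes ran from -1.91 near Aebp2 to 4.60 in Baz2b, and the 2 sites beyond 3 were both in Baz2b. The median width was 346 bp at higher sites of the regulators, where all higher sites had 412 bp.

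**Figure D2:**
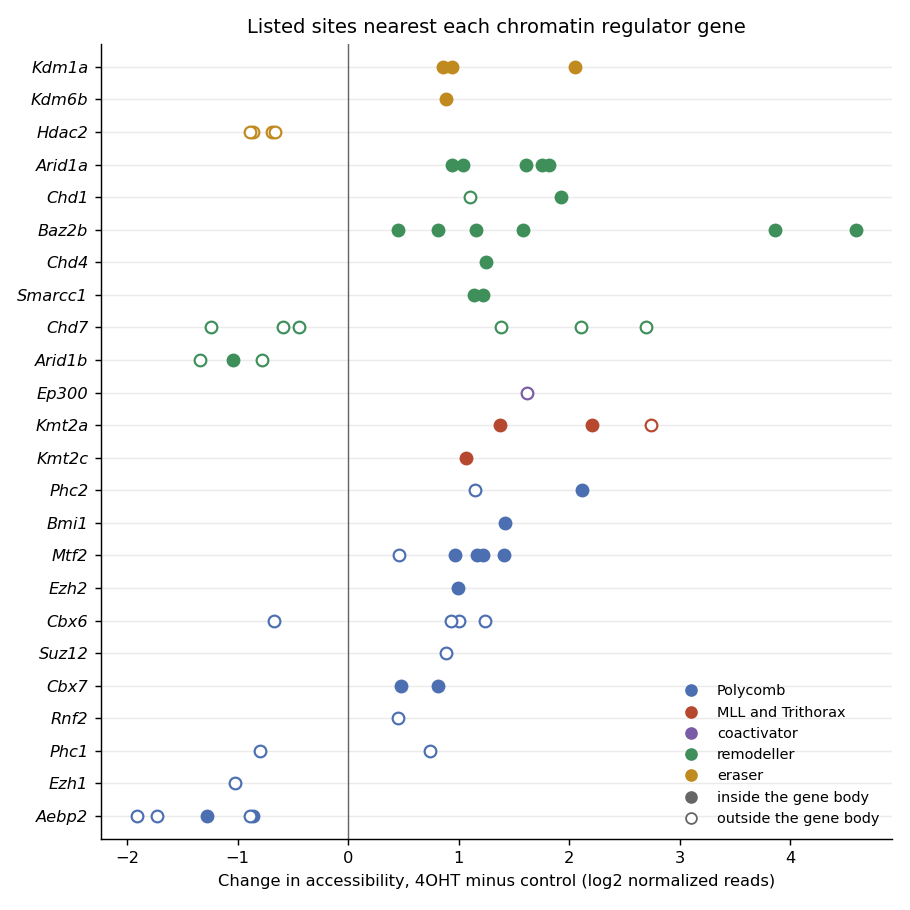
Change at each of the 63 listed sites (horizontal axis, 4OHT minus control, log2 normalized reads) for the 24 regulator genes with a site, coloured by class, with filled points inside and open points outside the gene body. Filled points lie right of 0 except 2 in Aebp2 and 1 in Arid1b, and the 2 rightmost points are the neighbouring Baz2b sites at 3.86 and 4.60.

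The genes were compared in 5 classes: Polycomb (19 genes), MLL and Trithorax methylation (6), coactivators (2), remodellers (8) and erasers, the demethylases and deacetylases (5). Polycomb genes had 17 higher and 8 lower sites (68.0%, exact interval 46.5 to 85.1%), and remodellers 19 and 6 (76.0%, interval 54.9 to 90.6%). The 54.6% of all sites lies inside the Polycomb interval and just below the remodeller interval, and both intervals take sites of the same gene as independent. MLL genes had 4 higher and 0 lower sites, the coactivators 1 and 0, and the erasers 4 and 4. The intervals of the Polycomb and remodeller shares overlap widely, and no class can be set apart from another by these counts. A site was listed for 11 of the 19 Polycomb genes, 2 of the 6 MLL and Trithorax genes, 1 of the 2 coactivators, 7 of the 8 remodellers and 3 of the 5 erasers. The median change of higher sites was 0.99 for Polycomb, 1.79 for MLL, 1.38 for remodellers and 0.92 for erasers, on the log2 scale. With sites of FDR under 0.001 alone, 4 of 11 Polycomb sites were higher (36.4%), of which the 5 Aebp2 sites make up most of the lower ones, while over all sites that limit gave 55.8%.

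Among the core subunits of PRC2, changes were few and of about 1 in size. Ezh2, the main methyltransferase, had 1 site, 620 bp inside the 3′ end of the gene at chr6:47530676-47531113, that went from 5.98 to 6.97 in log2 normalized reads (change 0.99, authors' FDR 0.00201). Its paralogue Ezh1 had 1 site, 4.64 kb upstream of the start, that fell from 6.99 to 5.97 (change -1.02, authors' FDR 2.50e-04). The 2 paralogues thus moved in opposite directions, each by about 2-fold and each through a single site. Suz12, the scaffold subunit, had 1 site 3.44 kb beyond its 3′ end that rose from 6.05 to 6.94 (change 0.89, authors' FDR 0.00240). Eed, the subunit that reads the methyl mark, had none.

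The accessory subunits of PRC2 held the clearest contrast. All 5 sites of Mtf2, a Polycomb-like protein that brings PRC2 to CpG islands, opened, and all 5 sites of Aebp2, which marks another form of PRC2, closed. In the authors' deposited table the Mtf2 sites rose by 0.46, 1.41, 1.22, 0.97 and 1.17 in order along the chromosome. The first of them, 5.06 kb outside the gene, was already open (9.46 to 9.92), and the 4 others, inside the gene between chr5:108073907 and 108090050, started at 4.93 to 6.77. The Mtf2 site with the smallest p went from 6.77 to 8.18 (2.66-fold, authors' FDR 3.42e-05).

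At Aebp2 the 5 changes were -1.73, -0.89, -0.86, -1.28 and -1.91 along the chromosome, 3 of them outside and 2 inside the gene. The site inside the gene at chr6:140673827-140674188 fell from 7.78 to 6.50, a 2.43-fold loss with the authors' FDR at 6.50e-11, the smallest of any Polycomb site here. The outermost sites, 8.06 kb before and 21.6 kb after the gene, fell the most, from 6.09 to 4.36 and from 5.71 to 3.80. Beyond the 100 kb window, 2 further sites with Aebp2 as the nearest gene, 181177 and 284201 bp away, went the other way, by 1.53 and 1.33. The other accessory genes, Phf1 and Phf19, had no listed site. Of the 662 genes with at least 5 listed sites, 139 (21.0%) had all of them in a single direction. Among the regulators with at least 5 this held for 4 of 5 genes: Mtf2, Arid1a and Baz2b upward and Aebp2 downward. These regulators had 5 or 6 sites each, whereas the 662 genes had no upper limit, so the shares are not like for like. Of the 105 other genes of the same machinery, described below, 6 had at least 5 sites. Only 1 of those 6 had all of them in a single direction.

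In PRC1, higher sites were the more common, as they were over all sites (54.6%). They made up 2 of 2 sites of the ring and PCGF genes, 5 of 6 of the CBX genes and 3 of 4 of the PHC genes. Rnf2, the main ubiquitin ligase, had 1 site, 14.9 kb upstream of the start, that was already among the most open of the set and rose from 9.73 to 10.18 (change 0.45, authors' FDR 0.00391). Bmi1, a PCGF subunit, had 1 site inside the gene that rose from 5.47 to 6.89 (2.68-fold, authors' FDR 0.00211). The CBX genes encode the chromodomain subunits that bind methylated histone H3. Cbx7, a main CBX of embryonic stem cells, had 2 sites inside the gene body, which rose from 8.78 to 9.59 and from 7.83 to 8.31. They lay 18.2 and 35.0 kb upstream of the only Cbx7 start with a promoter entry, which is inside the RefSeq gene body. Both of these Cbx7 changes were under 1, at 0.81 and 0.48 (authors' FDR 0.00117 and 0.00951).

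Cbx6 (chr15:79823898-79834333) is close to Cbx7 (chr15:79915804-79971143) and had 4 sites, all upstream of its start. These sites lie between the 2 gene bodies and within 100 kb of both, and were given to Cbx6 as the nearer. The 3 nearest, at 7.21, 11.5 and 14.0 kb, rose by 1.00, 1.24 and 0.93, and the farthest, at 20.2 kb, fell by 0.67. That lower site had the smallest p of the 4 in the authors' deposited table (authors' FDR 4.23e-04) and was also the most open in control cells, at 8.19. The PHC genes encode the subunits that let PRC1 cluster. Phc2 had 2 higher sites, at 3.81 to 5.93 inside the gene (4.35-fold, authors' FDR 9.82e-05) and at 4.71 to 5.86 outside it. Phc1 had 1 of each direction, rising by 0.74 at 4.57 kb upstream and falling by 0.80 at 38015 bp upstream. Ring1, Cbx2, Cbx8, Phc3 and Kdm2b, which brings a form of PRC1 to unmethylated CpG islands, had no listed site.

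All 4 sites of the MLL class opened, 3 of them at Kmt2a. Kmt2a encodes MLL1, a histone H3 lysine 4 methyltransferase, and its sites began from low levels. They went from 3.84 to 6.05 and from 5.51 to 6.88 inside the gene, and from 3.85 to 6.59 at a site 4.41 kb upstream of the start, at chr9:44885621-44885785. These are gains of 4.63-fold, 2.58-fold and 6.68-fold (authors' FDR 5.05e-05, 1.31e-04 and 1.71e-06), and the upstream site had the smallest p of the class. Kmt2c, which encodes MLL3, an enzyme of enhancers, had 1 site inside the gene that rose from 5.07 to 6.14 with an authors' FDR of 0.00987, close to the limit of the list. Kmt2b, Kmt2d, Ash1l and Ash2l had none. When each site was given to the nearest of all annotated genes, non-coding ones included, this class kept 1 site, a higher one.

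The coactivators gave 1 site. It lay 42.4 kb upstream of Ep300, the gene of the p300 acetyltransferase, and its log2 level went from 3.50 to 5.12, which is 11.3 and 34.8 normalized reads (authors' FDR 3.52e-04). Crebbp, the gene of its paralogue CBP, had no listed site although its body is 132.6 kb long.

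The remodellers held the largest gains. Baz2b, which encodes a bromodomain protein that can join ISWI-type remodellers, had 6 sites inside its body, all higher. A pair of sites with centres 490 bp apart, at chr2:60003675-60003968 and chr2:60004234-60004388, went from 4.02 to 7.88 and from 2.28 to 6.88. These are gains of 14.5-fold and 24.3-fold, with the authors' FDR at 1.11e-16 and 2.93e-07, and the second starts from 4.86 normalized reads, so its fold rests on a low control level. The other 4 changes were smaller, at 1.58, 1.16, 0.81 and 0.45 in order along the chromosome. The last of these sites was the most open of all 63 in control cells, at 10.02.

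Arid1a and Arid1b, which encode alternative DNA-binding subunits of the BAF complex, moved in opposite directions. All 5 sites of Arid1a lay inside the gene and rose, by 0.94, 1.82, 1.04, 1.75 and 1.61 along the chromosome. The strongest, at chr4:133688349-133688837, went from 6.15 to 7.97 (3.53-fold, authors' FDR 4.12e-07), and Arid1a control levels spanned 4.14 to 6.15. All 3 sites of Arid1b fell. The most distant, 45.7 kb outside the gene at chr17:4948336-4948906, fell from 9.88 to 8.54 (2.53-fold, authors' FDR 1.40e-11), the second, 26.7 kb outside, fell from 7.83 to 7.05, and the site inside the gene fell from 6.65 to 5.61. A site still farther out, 417195 bp from Arid1b and past the window, rose by 2.03. Smarcc1, a BAF scaffold gene, had 2 higher sites inside the gene (changes 1.22 and 1.14), and Smarca4, the gene of the ATPase BRG1, had none.

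The CHD genes encode chromodomain remodellers. Chd1, a gene tied to open chromatin in stem cells, had 2 higher sites, from 4.56 to 6.49 inside the gene and from 6.23 to 7.33 just beyond it (authors' FDR 1.11e-05 and 1.57e-04). Chd4, the ATPase gene of the NuRD complex, had 1 site inside the gene that rose from 5.68 to 6.93 (authors' FDR 1.49e-05). Chd7, an enhancer-bound remodeller, had 6 sites, all outside its body, of which 3 rose and 3 fell. The Chd7 sites that rose started at 2.92, 5.62 and 3.02, and those that fell at 9.67, 9.01 and 5.94, in log2 normalized reads. Along the chromosome the 6 changes were -0.44, 2.11, 1.38, -0.59, 2.70 and -1.24. The first site lay 2.12 kb from the gene, and the others lay 29.8 to 74.9 kb beyond its other end.

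Neighbouring Chd7 sites changed in opposite ways. The sites at chr4:8934406-8935039 and chr4:8936091-8936243, with centres 1445 bp apart 66.3 and 67.7 kb from the gene, changed by -0.59 and 2.70 (authors' FDR 0.00113 and 4.56e-05). Over all regulators, 33 of 39 pairs of neighbouring sites of the same gene shared a direction (84.6%), against 64.4% of such pairs over all genes, and 4 of the 6 discordant pairs were at Chd7.

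**Figure D3:**
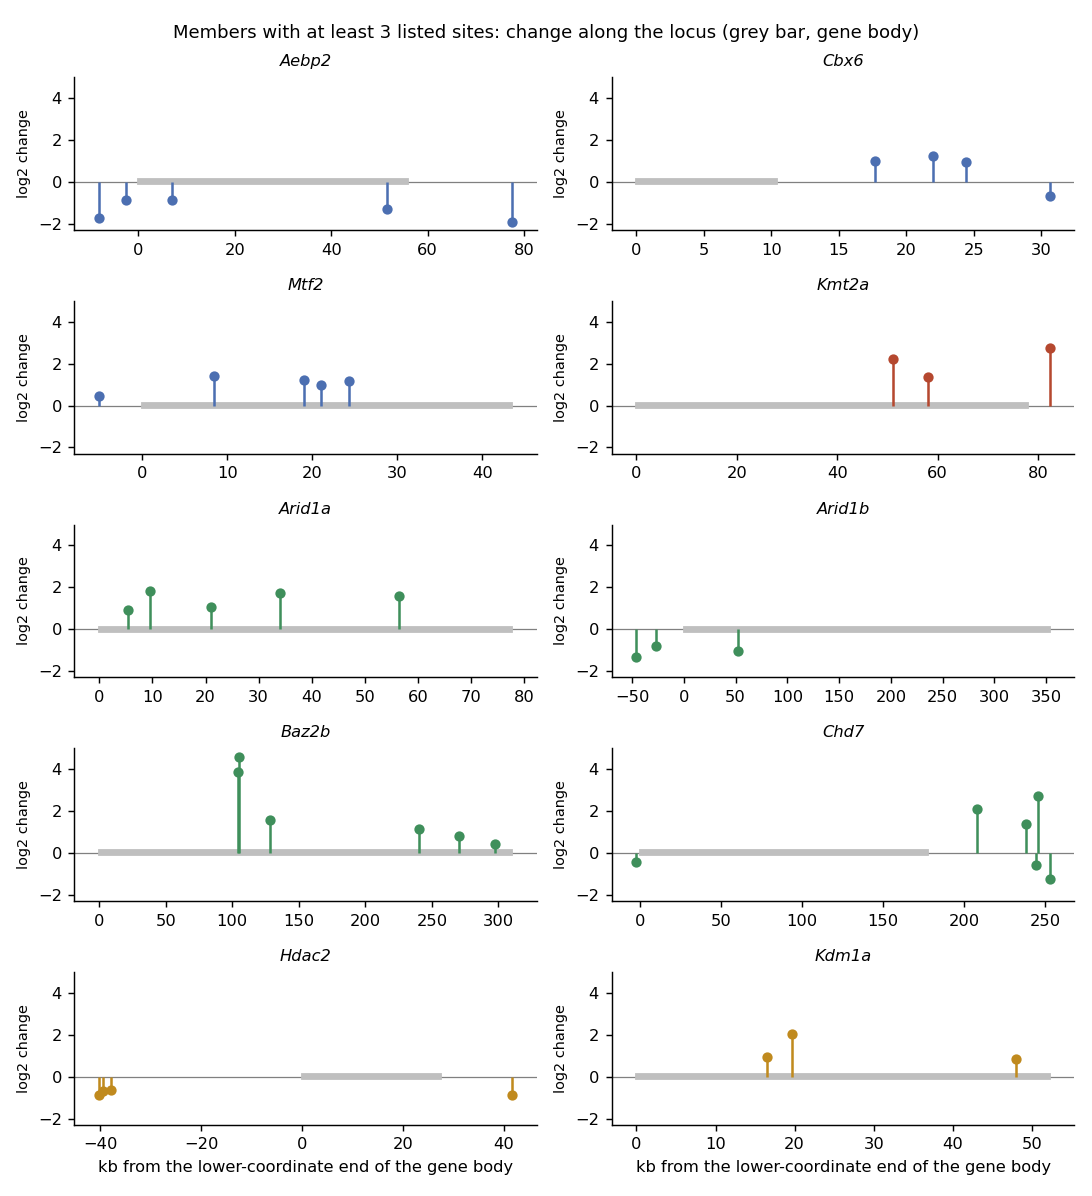
Log2 change (vertical axis) at each listed site against its distance in kb from the lower-coordinate end of the gene body (horizontal axis, grey bar for the gene body) for the 10 regulators with at least 3 sites. All stems point up at Mtf2, Kmt2a, Arid1a, Baz2b and Kdm1a and down at Aebp2, Arid1b and Hdac2, while Cbx6 and Chd7 have both.

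Among the erasers, the direction followed the gene. Kdm1a encodes LSD1, a demethylase of histone H3 lysine 4, and its 3 sites inside the gene all rose. The strongest, at chr4:136570005-136570403, went from 5.27 to 7.32 (4.14-fold, authors' FDR 9.53e-07), and the others rose by 0.94 and 0.86. Kdm6b, a demethylase of histone H3 lysine 27, had 1 site inside the gene that rose from 7.20 to 8.09 (authors' FDR 0.00558), and the related Kdm6a had none.

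All 4 sites of Hdac2, a deacetylase gene, fell, and all lay outside the gene. Of these, 3 formed a cluster from 37.7 to 40.1 kb before the gene and fell by 0.66 to 0.86, and the fourth, 14.1 kb beyond its other end, fell by 0.89. The widest of the cluster, at chr10:36935805-36937318, went from 9.79 to 9.13 with an authors' FDR of 5.00e-06. Hdac1, the gene of the paired deacetylase, had no listed site. Without Hdac2 the erasers had 4 higher and 0 lower sites.

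**Figure D4:**
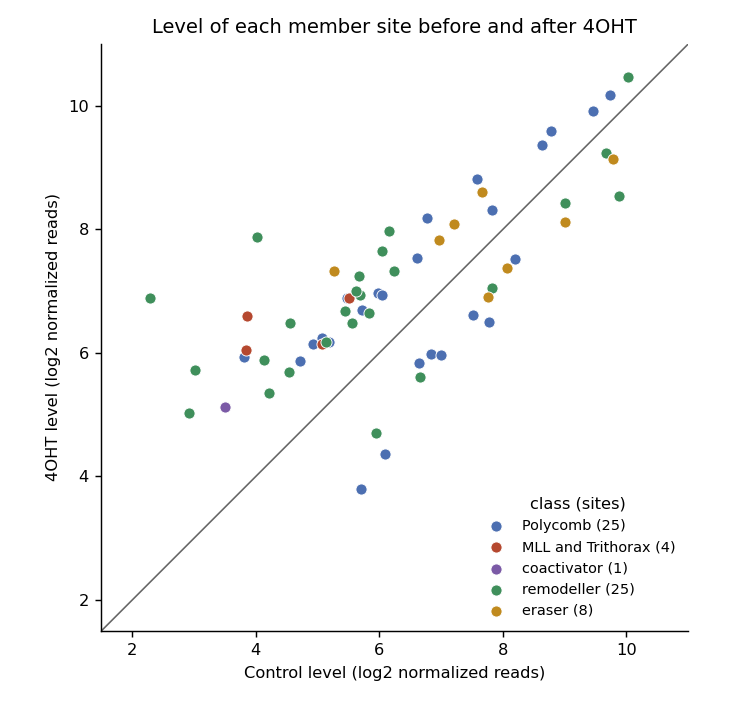
Control level (horizontal axis) against 4OHT level (vertical axis) in log2 normalized reads for the 63 sites, coloured by class, with the line of no change. Points above the line are the 45 higher sites, and the point farthest above it is the Baz2b site that went from 2.28 to 6.88.

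Other genes of the same machinery, 105 in all, were counted in the same way. A site was listed for 57 of them (54.3%, against 36.1% of all genes), and 120 of their 177 sites were higher (67.8%, against 54.6% of all sites). Jarid2, the gene of a PRC2 cofactor, held 40 of these sites (39 higher), and Auts2, of a PRC1 form, 19 (5 higher). Without both, the other Polycomb genes had 16 higher and 18 lower sites. That is 47.1% higher, next to 54.6% of all sites and the 68.0% of the Polycomb genes among the 40, and these differences were not tested.

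By class, the other remodeller genes had 30 higher and 16 lower sites, the other coactivators 8 and 3, and the other MLL and Trithorax genes 4 and 5. The MLL class therefore went both ways outside Kmt2a and Kmt2c, with Wdr5, the gene of a shared MLL subunit, falling at both of its 2 sites (median change -0.95). The other erasers had 18 higher and 0 lower sites over 9 of 14 genes. Among them Kdm5b, a demethylase of histone H3 lysine 4, had 5 higher sites (0.86 to 1.62), and Rcor1, the gene of the CoREST partner of LSD1, had 4 (1.16 to 1.72). Sin3b, the gene of a deacetylase complex scaffold, and Hdac8, a deacetylase gene, had 1 site each, rising by 2.28 and 2.33 (authors' FDR 6.38e-07 and 0.00657). Inside gene bodies, 101 of 126 sites of the 105 genes were higher (80.2%, against 58.4% of all sites inside), and outside 19 of 51 (37.3%, against 49.6%). Without Jarid2 and Auts2 these counts were 61 of 72 (84.7%) and 15 of 46 (32.6%).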

How the data were processed

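ATAC-seq was done on 9 libraries in 3 groups of 3, and 1 table of sites was used. Per the submitters' processing notes, mm10 was the build, and MACS2, Bowtie2 and bedtools were used (versions and roles unstated). How sites were filtered, normalized and tested was not given in the sources used here. For each site the authors' deposited table gives log2 levels (mean normalized reads) per side, a log2 fold, and a p-value with its FDR. The site width in bp is the authors' deposited value. The fold is control minus 4OHT and differed from the change used here by at most 0.01. The titles name replicates A, B and C, but description fields tag B as B2 and C as B. Whether these are separate cultures is not stated, so the authors' p-values cover library spread alone, possibly technical.

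Each site centre was given to the nearest of 21900 protein-coding gene bodies (RefSeq, GRCm38.p6) within 100 kb, and a centre inside several bodies to the one with the nearer end. All 40 members matched by symbol, as did 32 in the promoter table. Nearness is a naming rule and shows no regulatory link. Sites were placed inside or outside gene bodies, with no split by exon, intron or UTR. No test was run here: the table has no values per library, so each site keeps the authors' p-value and FDR, and counts stand beside those over all sites. Members, classes and lists were chosen with earlier results of these data known, and the 105 other genes were listed by function. The text names every member with its counts, the site with the smallest p of nearly every member, all sites of the members with the most sites, and extremes of each class. The planned motif count in promoters holding a listed site had no case, so RefSeq promoter windows of members with at least 5 sites in a single direction were shown instead. The assignment was checked on simulated positions. Calculations used scipy 1.17.1, pandas 2.3.3 and numpy 2.4.6 under Python 3.11.15, and figures matplotlib 3.10.9.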

Additional observations from a re-analysis of the deposited data

How the results depend on the processing

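No paired analysis was possible because the table holds means per side and no value per library, and for the same reason no library could be left out. Of 84 recomputed values over 11 alternatives (1 of them, leaving out genes longer than 300 kb, chosen after the data were seen), 69 stayed within 1.5 times the count or within the exact interval of the share. The number of member sites was 34 inside gene bodies, 32 with FDR under 0.001, 37 with a change of at least 1, 24 with 1 site per gene, and 156 when every member within 100 kb of a site was counted. Those higher numbered 20 with FDR under 0.001, 19 with 1 site per gene and 111 with every member within 100 kb. With the nearest of all annotated genes, non-coding ones included, 47 member sites were left, 35 of them higher (74.5%). The higher share was 83.7% within 20 kb and 91.2% inside gene bodies. It lay above that of all sites in each of the 8 settings where both were computed, from 62.5% against 55.8% (FDR under 0.001) to 91.2% against 58.4%, and with 1 site per gene it was 79.2% against 57.4%. These settings reuse the same sites and are not separate evidence. The exact interval held the share of all sites with FDR under 0.001 (43.7 to 78.9%). The same was so with the nearest gene end (54.8 to 80.1%, against 55.6%) and a change of at least 1 (64.8 to 92.0%, against 69.2%). The Polycomb share was 36.4% with FDR under 0.001. The eraser share was 100% inside gene bodies and without Hdac2 (the same 4 of 4 sites) and with a change of at least 1 (1 of 1 site). The remodeller share was 93.8% inside gene bodies (15 of 16 sites). For most of these settings the smaller number of sites follows from the setting itself, and otherwise the cause was not tested. Without Ep300 the coactivator class had no site left. The motif alternative had no case.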

Other observations

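Paralogues among the members with a listed site included Ezh1 and Ezh2, Arid1a and Arid1b, Cbx6 and Cbx7, Phc1 and Phc2, and the wider KMT2 and CHD families. This grouping was made after the values were seen. For Ezh1 and Ezh2, with 1 site each, and for Arid1a and Arid1b, with 5 and 3, every listed site of the first gene had the opposite direction to every site of the second. All sites of Kmt2a and Kmt2c rose. Cbx6 and Phc1 each had 1 lower site, and Cbx7 and Phc2 had 0. In the CHD family, the sites of Chd1 and Chd4 rose, and Chd7 had 3 higher and 3 lower. In a further set, 16 of the 40 members had no listed site, among them both Hdac1 and Smarca4, and whether these genes had sites that were tested and did not pass is not shown by a list of sites that passed.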
